A study of Drosophila melanogaster with 6 samples.

Results

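On the autosomal arms 2L, 2R, 3L and 3R of Drosophila melanogaster, 666 regions carried a Cmi peak in the embryo and again in the white prepupa, with no peak in the larva that lies between these stages. Of these regions, 93 also had a peak in S2 cells and 573 did not. They were chosen by the presence or absence of deposited peaks: the peaks of all 4 lists were merged wherever they overlapped or touched, and a merged region was kept if it held at least 1 prepupal and 1 embryonic peak and no larval peak. They made up 4.09% of the 16276 merged regions on these arms, and 19648 regions were found in the whole genome. The counts of stages per region, and the widths and positions of embryonic and prepupal peaks below, come from the lists that chose the regions, so they are descriptions without a test.

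Cmi was mapped by chromatin immunoprecipitation and sequencing (ChIP-seq), in which protein is fixed to DNA with formaldehyde and the DNA held by an antiserum, here one against Cmi, is read. The groups are embryos, wandering larvae of the third instar, white prepupae and cultured S2 cells, a Drosophila line of embryonic origin. Larvae and prepupae were whole animals, so a peak in them can stem from any tissue and a site bound in few cells can be missed. The labels give the genotype Y cn bw sp for larvae, prepupae and, likewise, S2 cells, and no treatment. The embryo list stems from data published before this series and has no sample here. Its name gives the embryos as E0-8, with no unit, and no source used here gives their genotype. Each list stands for 1 ChIP library without replicates or is of unknown makeup, so no spread between animals or cultures can be given. Intervals below are exact binomial 95% intervals that cover the number of regions only, and neighbouring regions are not independent. The lists hold positions alone, without read counts or peak heights, so depth is unknown, and the lack of a listed peak is no proof that Cmi was away from a site.

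Cmi, also named Lpt, is a subunit of a COMPASS-like complex with the methyltransferase Trr, which places the single methyl mark on lysine 4 of histone H3 that is typical of enhancers. Enhancers are stretches of DNA that switch genes on in particular tissues and stages. Trr also serves as a coactivator of the receptor for ecdysone, the steroid hormone whose pulse at the end of larval life starts metamorphosis. The white prepupa is the short stage just after that pulse, in which larval tissues begin to be replaced by adult ones grown from imaginal discs. Coordinates are on dm3, counted from 1. No genome or gene annotation of that build was used, so neither genes nor sequences are named for these regions.

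The regions were spread over all 4 arms. There were 185 on 3L (27.8%, 24.4 to 31.3), 183 on 3R (27.5%, 24.1 to 31.0), 155 on 2R (23.3%, 20.1 to 26.7) and 143 on 2L (21.5%, 18.4 to 24.8). Among all merged regions the shares were 25.0% on 3L, 28.7% on 3R, 23.7% on 2R and 22.6% on 2L, and each of the 4 intervals included the share of all regions. Regions with an S2 peak were on 2L in 11 of 93 cases (11.8%, 6.06 to 20.2), against 132 of 573 (23.0%, 19.6 to 26.7) of those without one. Of all S2 peaks on the 4 arms 16.8% were on 2L, against 22.4% of the embryonic peaks. The regions held 755 prepupal peaks, or 9.99% of that list's peaks on the 4 arms, and 719 embryonic peaks, or 5.47% of that list's.

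Most regions had 1 prepupal and 1 embryonic peak, and the prepupal peak was usually the narrower. Exactly 1 peak of each stage was found in 563 of the 666 regions (84.5%). More than 1 prepupal peak occurred in 71 regions (10.7%), and more than 1 embryonic peak in 45 (6.76%). The widest prepupal peak of a region had a median of 397.5 bp (220 to 3096 bp), and the widest embryonic peak a median of 627.5 bp (280 to 8083 bp). The prepupal peak was the narrower in 475 regions (71.3%) and the wider in 191 (28.7%).

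Across these regions the peak width at one stage was hardly related to that at the other. Across the 666 regions Spearman's rho between the widest prepupal and the widest embryonic peak was 0.06, where each point is 1 region and all points share the same pair of libraries. The region with the widest embryonic peak, on 2R from 2480322 to 2488404, had 8083 bp in the embryo and only a 359 bp prepupal peak inside it. The region with the widest prepupal peak, on 3L from 5609470 to 5612565, had 3096 bp in the prepupa, which spanned 2 embryonic peaks of 627 and 568 bp. On 3R from 9631918 to 9634311, a prepupal peak of 2033 bp overlapped one end of an embryonic peak of 474 bp. On 3R from 17465783 to 17470519, 3 separate prepupal peaks of 390, 370 and 407 bp sat within 1 embryonic peak of 4737 bp. On 3L from 741690 to 746254, a prepupal peak of 241 bp reached over one end of an embryonic peak of 4540 bp. In these 5 regions a broad peak of either stage stood beside short peaks of the other. They were picked from the regions with the widest peaks of one stage, which favours a shorter partner. Other regions were broad at both stages. On 3R from 27511785 to 27513986 the prepupal peak had 1570 bp and the embryonic one 2186 bp. On 3R from 16368094 to 16369768 they had 1408 and 1634 bp. The relation of widths was not computed for other classes.

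**Figure D1:**
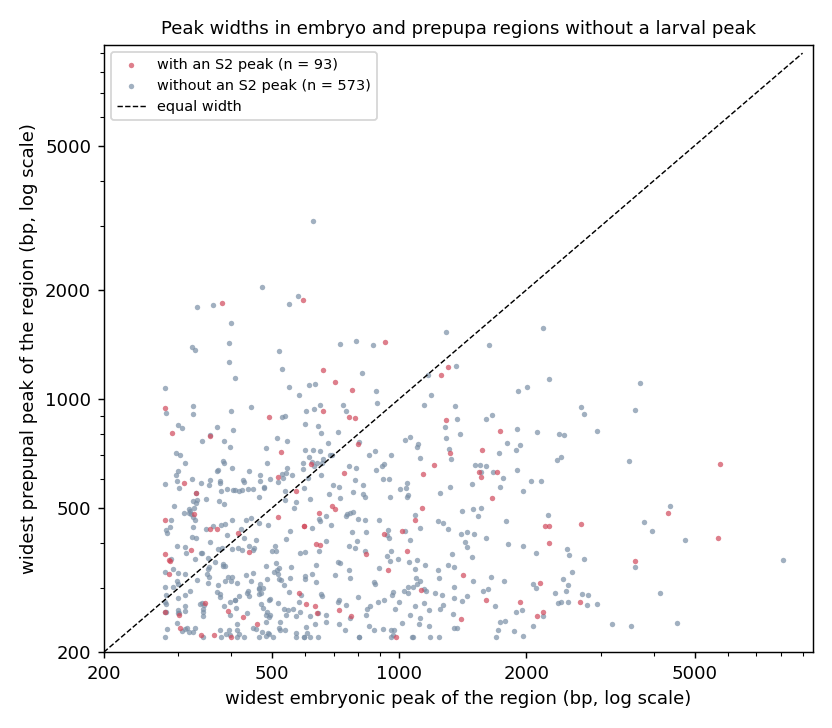
Width of the widest prepupal peak (vertical axis, bp, log scale) against that of the widest embryonic peak (horizontal axis, bp, log scale) in each of the 666 regions, with the 93 regions that have an S2 peak in red and the 573 without one in grey-blue. Points lie below the dashed line of equal width in 475 regions. The widest embryonic peak, of 8083 bp, has a prepupal partner of 359 bp, and one of 1697 bp has a partner of 220 bp, the minimum of the prepupa list.

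The prepupal peak usually fell on the body of the embryonic one. Its midpoint lay inside the widest embryonic peak in 500 regions (75.1%), and the median distance between both midpoints was 193.5 bp. The whole prepupal peak lay inside the embryonic one in 262 regions (39.3%), and the reverse held in 60 (9.01%). In regions with 1 peak of each stage, the prepupal peak lay inside the embryonic one in 233 of 563 (41.4%, 37.3 to 45.6), against 515 of 989 (52.1%, 48.9 to 55.2) such regions that also had a larval peak. The embryonic peaks here had a median width of 601 bp, against 1272 bp in those regions. In these regions with 1 peak of each stage, the median distance between midpoints was 171.5 bp here and 220.5 bp where a larval peak was present. Relative to the width of the embryonic peak the order was the reverse, with medians of 0.23 here and 0.18 where a larval peak was present.

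The peaks of these regions were short compared with regions with a peak at all 3 stages. The median of the widest prepupal peak was 397.5 bp here, against 919.5 bp in the 2146 regions with a peak in embryo, larva and prepupa, 630 bp in larva and prepupa alone, and 352 bp in prepupa alone. For the widest embryonic peak it was 627.5 bp here, against 1458 bp at all 3 stages, 1045 bp in embryo and larva without prepupa, and 440 bp in embryo alone. In 237 regions (35.6%) the widest prepupal peak was narrower than 320 bp, the smallest peak in the larva list, and in 62 (9.31%) the widest embryonic peak was. Narrow peaks were not particular to these regions. Prepupal peaks under 308 bp were 260 of the 755 here and 712 of the 1777 in regions of the prepupa alone. Embryonic peaks under 356 bp were 138 of the 719 here and 2655 of the 8178 in regions of the embryo alone. In regions of all 3 stages the counts were 693 of 3929 and 396 of 3339. The number of regions rests on such narrow peaks: when peaks under 340 bp, the smallest width in the S2 list, were left out of all lists, it was 364, of which 58 had an S2 peak and 306 did not. When every list was shortened to its widest peaks, as many as the shortest list has, it was 189, and with every peak set to 500 bp around its midpoint it was 1013.

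Fewer of these regions had an S2 peak than of embryo and larva regions, and more than of regions of the embryo or the prepupa alone. The share with an S2 peak was 93 of 666 (14.0%, 11.4 to 16.8), against 19.3% of all 14859 regions with a peak at any animal stage. Those 14859 include regions with a larval peak, and their share is given for the main merging alone. In the mirror case, the 835 regions with peaks in embryo and larva but none in the prepupa, it was 335 (40.1%, 36.8 to 43.5). In the 2146 regions with peaks at all 3 stages it was 1351 (63.0%, 60.9 to 65.0). Regions of the embryo alone had an S2 peak in 659 of 8102 cases (8.13%, 7.55 to 8.75), and those of the prepupa alone in 93 of 1758 (5.29%, 4.29 to 6.44). The intervals of these 5 classes did not overlap, which places the embryo and prepupa regions above regions of the embryo or the prepupa alone and below those that share the embryo with the larva. Regions of the larva alone had an S2 peak in 68 of 506 cases (13.4%, 10.6 to 16.7), a value close to that of the embryo and prepupa regions, with an overlapping interval. The S2 list was not used to choose the stages, but it took part in the merging, where a broad S2 peak can join a region to a larval peak and so remove it from this group. When only the embryo, larva and prepupa lists were merged, 134 of 707 regions (19.0%) touched an S2 peak, against 43.1% of embryo and larva regions, 64.3% of regions at all 3 stages, 12.3% of embryo and 14.2% of prepupa regions. With lists of equal length it was 19.6% here, against 15.6% of embryo regions, whose value then lay within the interval of the regions here.

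The difference from the embryo and larva regions was also seen among embryonic peaks of like width. The embryonic peaks on the 4 arms were divided into 4 width classes of about equal number, at 356, 534 and 996 bp. A direct overlap of at least 1 bp with an S2 peak was counted. In 12 of the regions here only an S2 peak joined the embryonic and prepupal peaks, so S2 overlap there partly follows from the merging. Their peaks were kept in the counts below, for embryo and prepupa alike, and the width classes were not counted without them. In the narrowest class, 21.7% (15.2 to 29.6) of the embryonic peaks in these regions met an S2 peak, against 40.5% (29.9 to 51.7) in embryo and larva regions. In the next classes it was 11.5% (7.16 to 17.2) here against 35.8% (27.3 to 44.9), then 18.0% (13.0 to 23.9) here against 34.7% (29.0 to 40.7). In the widest class it was 16.4% (11.6 to 22.3) here against 47.9% (43.1 to 52.6) in embryo and larva regions. That widest class stood at 16.8% (14.5 to 19.3) in regions of the embryo alone, a value within the interval for these regions. Narrower embryonic peaks met S2 peaks in 6.93%, 5.91% and 11.6% of cases in regions of the embryo alone, from the narrowest class upwards. Prepupal peaks gave a like order. Of the 755 in these regions 15.5% (13.0 to 18.3) met an S2 peak, against 33.5% (30.7 to 36.3) in regions of larva and prepupa without embryo and 6.30% (5.22 to 7.53) in regions of the prepupa alone. A tissue or library difference between whole animals and the cell line cannot be told apart from one of stage in these shares.

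**Figure D2:**
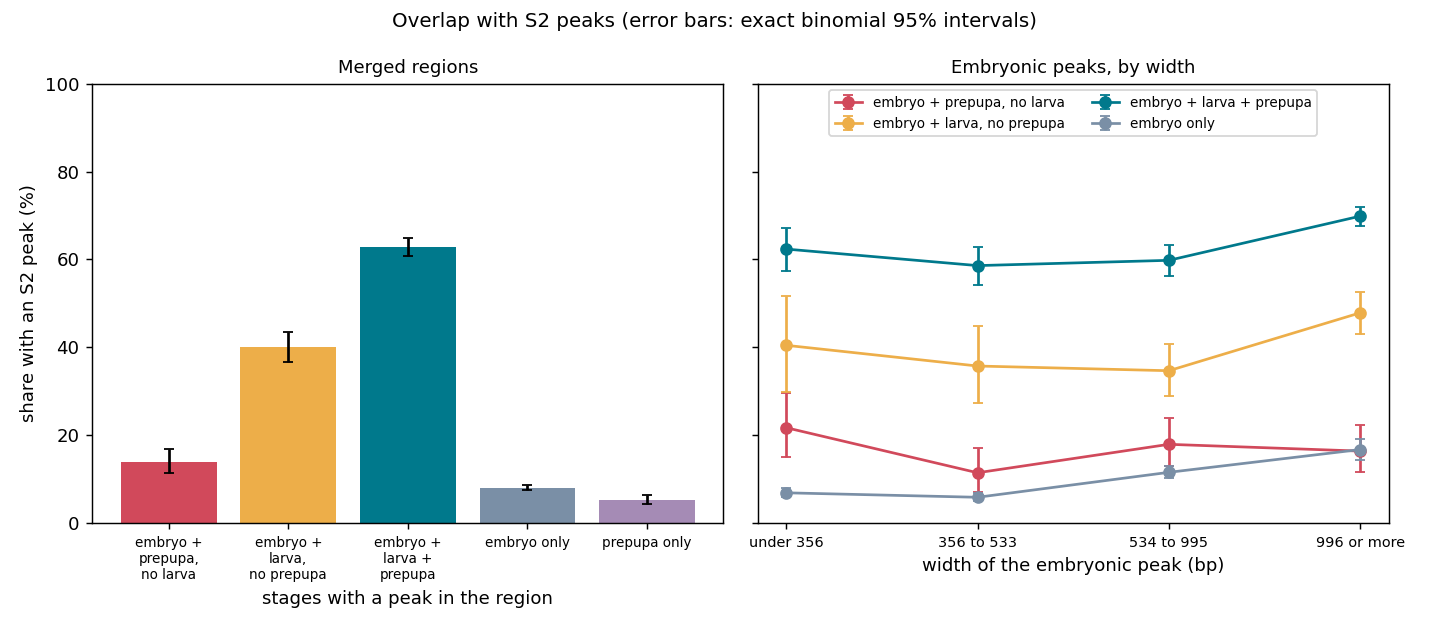
Left, share of merged regions with an S2 peak (vertical axis, %) for 5 combinations of stages, with exact binomial 95% intervals. Right, share of embryonic peaks that overlap an S2 peak, by class of embryonic peak width in bp, including peaks of the 12 regions joined by an S2 peak alone. The embryo and prepupa regions (red) stand at 14.0%, under the 40.1% of embryo and larva regions (yellow), and stay below them in each of the 4 width classes, with intervals that do not overlap (narrowest class, up to 29.6% against 29.9% and above).

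Where an S2 peak was present, S2 peaks usually overlapped peaks of both the prepupa and the embryo. In 86 of the 93 regions (92.5%) S2 peaks overlapped peaks of both stages, in 6 only embryonic ones and in 1 only a prepupal one. The regions with an S2 peak were wider, at a median of 1747 bp against 828 bp without one, a width that includes the S2 peak itself (median of the widest, 1123 bp). Their widest prepupal peaks had a median of 446 bp against 388 bp without an S2 peak, and their widest embryonic peaks 704 bp against 613 bp. In 12 of the 93 regions no prepupal peak overlapped an embryonic one, and the S2 peak alone (median 3116 bp) held them together. All 573 regions without an S2 peak had a direct overlap. The merging nearly fixes this, since without an S2 peak the peaks of both stages must overlap or touch to form a region. Leaving out the 12 joined regions, 81 of 654 had an S2 peak (12.4%, 9.96 to 15.2).

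Among the widest regions with an S2 peak, either the cell line or the embryo had the broad peak. On 2R from 6956075 to 6965243, a single S2 peak of 9169 bp covered 3 prepupal peaks of 1057, 446 and 459 bp and 2 embryonic peaks of 280 and 774 bp. On 3R from 11845746 to 11853387, an S2 peak of 7642 bp held 1 prepupal peak of 624 bp, whose midpoint was 20.5 bp from that of an embryonic peak of 739 bp. On 3L from 22391870 to 22397611 the embryonic peak was the broad one, with 5742 bp, around a prepupal peak of 663 bp and S2 peaks of 2923 and 637 bp. Likewise, on 3L from 16760028 to 16765709, an embryonic peak of 5682 bp enclosed a prepupal peak of 413 bp and an S2 peak of 840 bp, the prepupal one within the S2 one. The cell line had the broadest peak on 2R and 3R, and the embryo in both regions on 3L.

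Although no larval peak lay in these regions, a larval peak was often near. The median gap to the nearest one was 3820 bp (7 to 273804 bp). A larval peak lay within 1 kb of 148 regions (22.2%, 19.1 to 25.6), against 16.1% of all 10526 animal-stage regions without a larval peak. The same was true of 1103 of the 8102 regions of the embryo alone (13.6%, 12.9 to 14.4) and of 441 of the 1758 regions of the prepupa alone (25.1%, 23.1 to 27.2). The embryo and prepupa regions were thus nearer to larval peaks than regions of the embryo alone, and their interval overlapped that of the prepupa alone. With only peaks above their list's median width the share was 12.6% here (9.43 to 16.4), against 6.52% of embryo and 12.5% of prepupa regions. With every peak set to 500 bp it was 39.8% here (36.8 to 42.9), against 15.6% of embryo and 38.5% of prepupa regions. With lists of equal length it was 17.5% here (12.3 to 23.6), against 12.0% of embryo regions (10.6 to 13.4), and these intervals overlapped. Regions with an S2 peak had a median gap of 2949 bp, against 4057 bp for those without one. The gap is counted from the edge of the region, which a broad S2 peak can extend. Their shares within 1 kb, 26.9% (18.2 to 37.1) with and 21.5% (18.2 to 25.1) without an S2 peak, had overlapping intervals. Within 5 kb a larval peak was found for 55.9% (52.0 to 59.7) of the regions, against 47.2% (46.1 to 48.3) of embryo and 57.1% (54.7 to 59.4) of prepupa regions. Within 50 kb the shares were alike, with 96.5% (94.9 to 97.8) here, against 95.8% of embryo and 95.6% of prepupa regions. In the order of all merged regions along the arm, 394 regions (59.2%) had no larval peak in the next region on either side, 220 (33.0%) had one on 1 side, and 52 (7.81%) had larval peaks on both sides. Regions of the embryo alone were close to this, with no such neighbour in 61.8%, 1 in 32.3% and both in 5.86% of cases, against 50.7%, 38.5% and 10.8% for those of the prepupa alone.

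The boundary of the group is sharp by definition and narrow in base pairs. The regions closest to a larval peak were on 3L from 141703 to 142385, from 16566554 to 16566977 and from 13914849 to 13916297, with gaps of 7, 10 and 13 bp. Just outside the rule, 2 regions of all 3 stages had larval peaks that met no embryonic or prepupal peak directly. Among those with a direct larval overlap, the shortest were on 3L from 9736514 to 9737328, with 23 bp in common, and on 2R from 17758901 to 17759687 and from 14537571 to 14541750, with 54 and 87 bp. In all, 12 regions had a larval peak within 100 bp, and 80 within 500 bp.

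At the other end, 23 regions lay more than 50 kb and 8 more than 100 kb from any larval peak. That is 3.45% and 1.20% of the 666, against 4.25% and 1.31% of embryo and 4.44% and 1.31% of prepupa regions. The 5 farthest had peaks of 220 to 1017 bp and no S2 peak, as was the case for 573 of the 666. On 2L from 17747138 to 17747939, a prepupal peak of 220 bp sat in an embryonic peak of 802 bp, 273804 bp from the nearest larval peak. On 2L from 17963080 to 17963746, a prepupal peak of 286 bp met an embryonic peak of 656 bp, with a gap of 150791 bp. The next were on 2L from 4614207 to 4614582, where peaks of 376 bp (prepupa) and 341 bp (embryo) had midpoints 12.5 bp apart, and on 2L from 17243174 to 17243940, with 765 bp (prepupa) and 543 bp (embryo). The fifth, on 2R from 19093137 to 19094153, had 241 bp in the prepupa and 1017 bp in the embryo. Of the 5, 4 were on 2L, and 3 of these lay between 17243174 and 17963746, bounds set by these regions themselves. There the embryo list had 48 peaks, the larva list 8, the prepupa list 26 and the S2 list 12. On all 4 arms the same lists had 13156, 5228, 7555 and 5051 peaks. The stretch was not far from larval peaks throughout: its region from 17380868 to 17382153, with an S2 peak, lay 1156 bp from one.

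**Figure D3:**
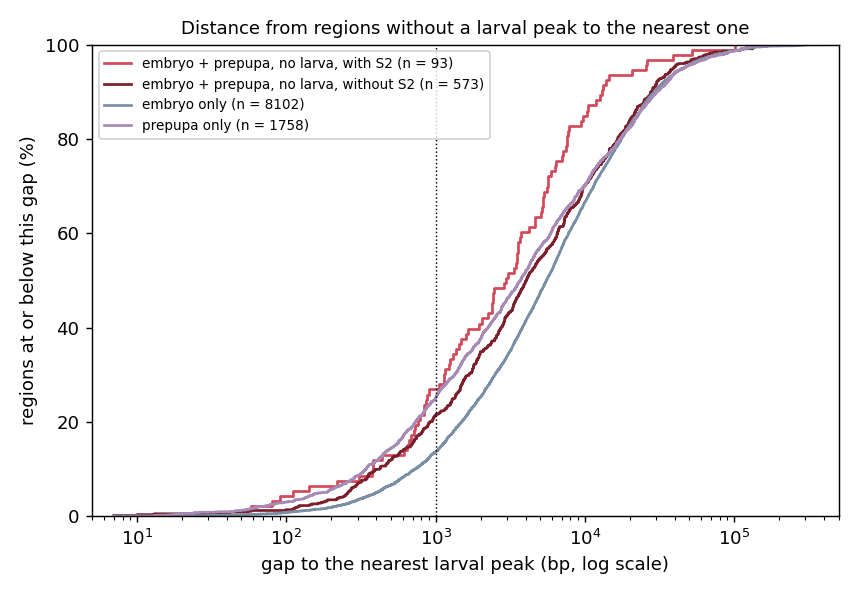
Cumulative share of regions (vertical axis, %) by the gap to the nearest larval peak (horizontal axis, bp, log scale) for the 93 embryo and prepupa regions with and the 573 without an S2 peak, and for regions of the embryo alone and of the prepupa alone. At the dotted line of 1 kb, 26.9% and 21.5% of the embryo and prepupa regions, 13.6% of the embryo regions and 25.1% of the prepupa regions have a larval peak at or within that gap.

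At short distances these regions more often had a neighbour of their kind than embryo and larva regions, though not under every setting. Another region of the same kind lay within 5 kb of 208 of the 666 (31.2%, 27.7 to 34.9), against 170 of 835 (20.4%, 17.7 to 23.3) for the embryo and larva regions. Within 10 kb the shares were 40.8% (37.1 to 44.7) and 30.8% (27.7 to 34.0), and within 50 kb 69.2% (65.6 to 72.7) and 69.3% (66.1 to 72.5). Very close neighbours were among them, as 64 regions (9.61%) had another within 500 bp, against 30 (3.59%) of the embryo and larva regions. The order at 10 kb turned round without peaks under 340 bp (25.8% of 364 regions, against 34.2% of 941 embryo and larva regions) and with lists of equal length (15.9% of 189, against 29.4% of 772). The order was kept for peaks above their list's median width, with 22.6% of 372 regions here against 13.5% of 348. It was also kept with every peak set to 500 bp, with 50.2% of 1013 here against 33.0% of 967. These settings differ both in peak widths and in numbers of regions, and what turned the order round was not tested.

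**Figure D4:**
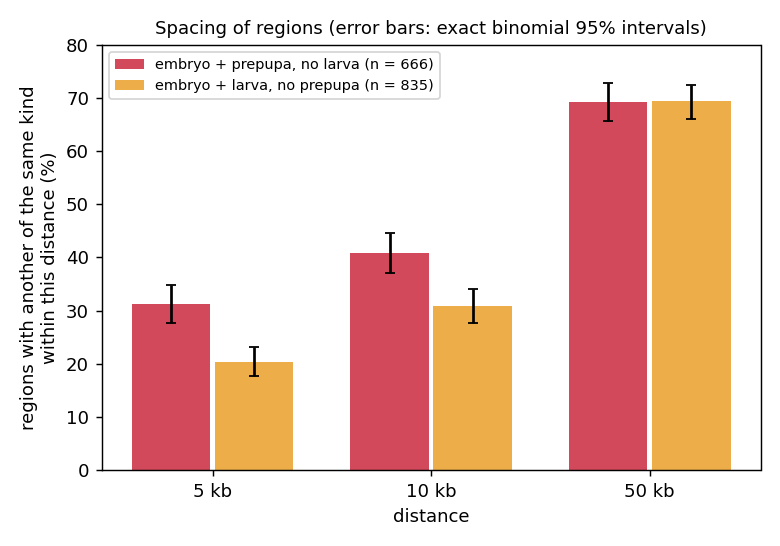
Share of regions (vertical axis, %) with another region of the same kind within 5, 10 or 50 kb, for the 666 embryo and prepupa regions (red) and the 835 embryo and larva regions (yellow), with exact binomial 95% intervals. The red bars are higher at 5 kb (31.2% against 20.4%) and 10 kb (40.8% against 30.8%) and level at 50 kb (69.2% against 69.3%), and the order at 10 kb turns round when all lists share 1 minimum width.

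Counted in fixed windows of 50 kb, 307 of the 447 windows that held such a region held exactly 1. The fullest, on 3L from 14600001 to 14650000, held 7, none of them with an S2 peak, among 20 embryonic, 6 larval and 22 prepupal peaks and 1 S2 peak. A window on 3L (16000001 to 16050000) and one on 3R (900001 to 950000) held 6 each, none of these regions with an S2 peak. The window on 3L had 21 embryonic, 9 larval and 15 prepupal peaks, and the one on 3R had 23 embryonic, 5 larval and 13 prepupal peaks. There were 5 regions each on 2R from 8850001 to 8900000, on 3R from 10500001 to 10550000 and on 3R from 17450001 to 17500000, with 7, 10 and 12 larval peaks. Of these regions, none on 2R had an S2 peak, against 2 in the first window on 3R and 1 in the second. Each of these 6 windows thus also had larval peaks. Windows that had a region of this kind and no larval peak at all numbered 57 of the 447, with 85 regions in them. Windows without such a region were not counted, so no share over all windows can be set beside this.

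In 60 places such regions followed each other along the arm with no other merged region between them, which took up 124 of the 666. Runs were not counted in other classes, so this number is a description alone. Nearly all were pairs (57). The longest run, on 3L from 14634807 to 14641038, had 4 regions within 6232 bp in the fullest window. Its regions had prepupal peaks of 230 bp, then 373 and 230 bp, then 1261 bp and 328 bp, on embryonic peaks of 972, 1330, 396 and 351 bp. The prepupal peak was the wider one only in the region with 1261 bp. There was a run of 3 on 2L (21017816 to 21024668) and another on 3R (14819315 to 14823573). In the run on 2L the prepupal peaks measured 1392, 672 and 547 bp and the embryonic ones 323, 622 and 681 bp. In none of these 3 runs was there an S2 peak, and the nearest larval peaks were 3466 to 10574 bp away.

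**Figure D5:**
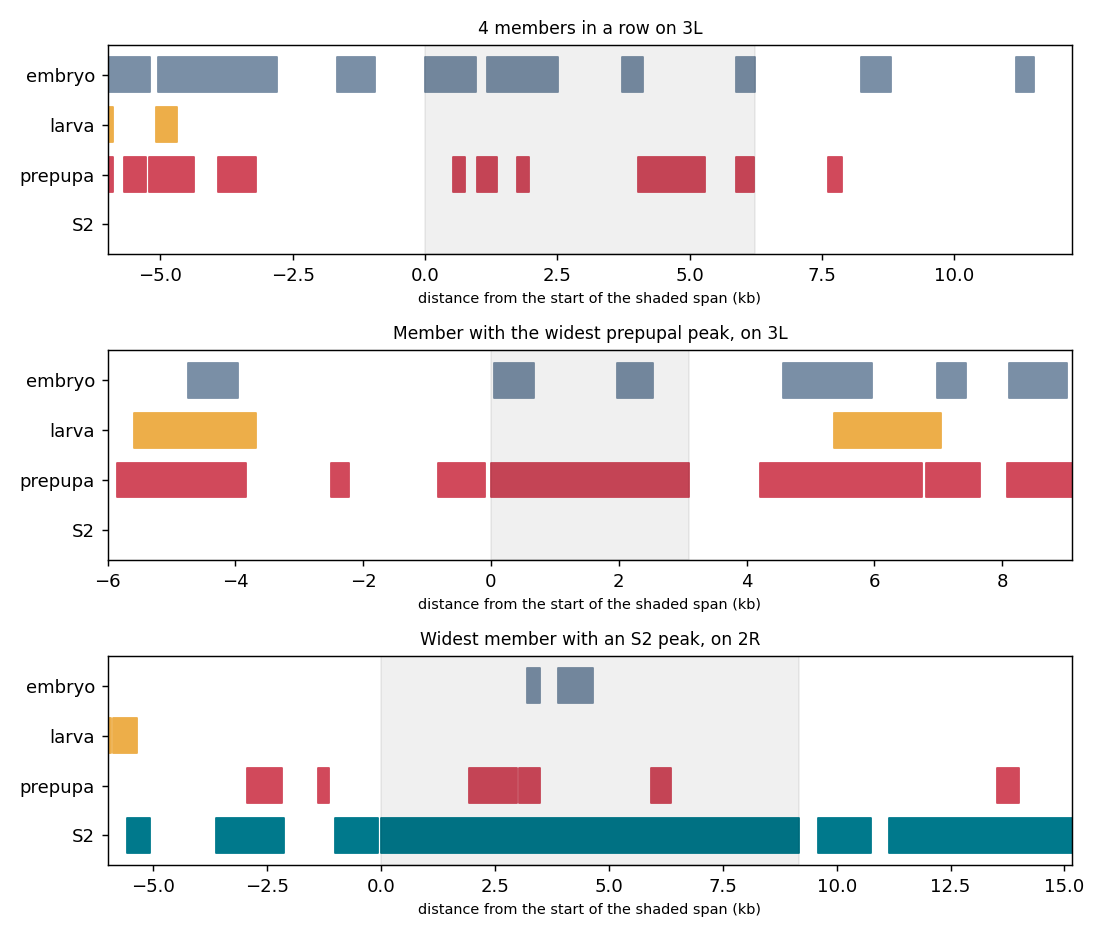
Peaks of the 4 lists (rows) around 3 places, drawn to scale by distance in kb from the start of the shaded span. Top, the run of 4 regions on 3L. Middle, the region with the widest prepupal peak (3096 bp), on 3L. Bottom, the widest region with an S2 peak, on 2R, where the S2 peak of 9169 bp covers prepupal and embryonic peaks. No larval peak lies in the shaded spans, but one is within the drawn flanks of each.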

How the data were processed

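The submitters' processing notes name BWA, MACS2 and the build dm3. The sources used here do not give versions, thresholds, the use of input libraries or any pooling. The authors deposited each list as chromosome, start and end, without scores, so depth and its precision are unknown. Peaks of the 4 lists that overlapped or touched were merged, and regions were classed by the lists with a peak in them. The gap to a larval peak is counted between edges. Shares have exact binomial (Clopper-Pearson) 95% intervals. With 1 library a group no test over samples exists, and none was made. The merging was tested on planted peaks.

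Regions named are the widest with and without an S2 peak, those with the widest prepupal or embryonic peak, the farthest from and nearest to a larval peak, the fullest 50 kb windows and the longest runs. The regions and classes were chosen with earlier results of these data known. Alternatives changed the merging, the larval distance, peak widths, list lengths, arms and lists merged. The width classes were added after seeing the data. The planned comparison of peak positions with genes was not run, since no annotation of dm3 was used. The input libraries have no file and were not analysed here. Python 3.11.15, numpy 2.4.6, scipy 1.17.1 and matplotlib 3.10.9 were used.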

Additional observations from a re-analysis of the deposited data

How the results depend on the processing

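The number of regions depended on how absence and peak width were set. With no larval peak allowed within 5 kb, 34 regions with and 260 without an S2 peak were left. With only the wider peaks of each list (above its median width), 300 were without one. With every peak set to 500 bp, 203 had one. With 1 smallest width for all lists the numbers were 58 and 306, and with the same number of widest peaks 37 and 152. The share with an S2 peak was 19.4% with wide peaks, 20.0% with 500 bp peaks, 19.6% with equal numbers and 19.0% when merged without the S2 list. It was 21.7% and 18.0% for embryonic peaks of the narrowest class and of 534 to 995 bp, and 18.2% and 18.5% for prepupal peaks of 308 to 492 bp and of 892 bp or more, settings chosen after seeing the data. In embryo and larva regions it was 35.2% with 500 bp peaks, 44.3% with 1 smallest width, 47.5% with equal numbers and 35.9% with X and 4 added. In each of the 11 planned settings it was lower here than in embryo and larva regions, and lower there than at all 3 stages (the larval distance and direct-overlap settings changed the regions here alone). The share with a larval peak within 1 kb was 12.6% with wide peaks, 39.8% with 500 bp peaks and 17.5% with equal numbers. Other distances gave 12.0% (500 bp), 55.9% (5 kb) and 96.5% (50 kb). Without depth or replicates, a site missed in the larval library and one not bound there cannot be told apart.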

Other observations

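The same combination of peaks, in embryo and prepupa without larva, was found in 106 further merged regions outside the 4 arms. Of these, 92 were on X, 3 on chromosome 4 and 11 on other sequences, and 8 of the 106 had an S2 peak, 6 of them on X. They enter no count above.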
